A study of Mus musculus with 8 samples.

Results

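Gzmk-expressing CD4 T cells of the mouse colon are described here across 8 single-cell RNA libraries of the lamina propria, the layer that lies beneath the epithelium. The members were chosen by their UMIs (unique molecular identifiers, the tags that count single transcripts), so their Gzmk levels are a description. A cell was counted as Gzmk+ when it was on the submitters' list of kept cells and met a rule. The rule asked for at least 2 UMIs over Cd3e, Cd3d, Cd3g, Trac and Trbc2, at most 1 UMI each of Cd79a, Col3a1 and C1qa, no UMI of Foxp3 or Il17a, and at least 1 UMI of Gzmk. It found 873 cells, which were 3.18% of the 27420 listed cells and 4.40% of the 19833 T cells that met the T cell part of the rule. Another 181 T cells carried Gzmk together with Foxp3 or Il17a and were set aside. All mice were C57BL/6, 10 to 12 weeks old, and either wildtype or carriers of a knock-in that the titles name S203AKI, called mutant below. Untreated mice drank plain water. Treated mice drank 2% dextran sulfate sodium (DSS, a polymer that injures the colonic epithelium) for 7 days, then plain water for 3 days. All were taken on day 10, and CD4+ cells were enriched with an isolation kit after a Percoll step before about 10000 cells were loaded. Each of the 4 combinations of genotype and treatment was covered by 2 libraries. Whether the knock-in was 1 founder line, and whether a library was 1 animal, were not given in the sources used here.

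Granzyme K is a trypsin-like serine protease stored in the granules of cytotoxic lymphocytes. Eomes, a T-box transcription factor related to T-bet, is known as a driver of cytotoxic and interferon-γ programmes in T cells. CCL5 is a chemokine that attracts T cells and monocytes. T cells that carry Gzmk, Eomes and Ccl5 are best known among CD8 cells, and CD4 cells of this kind have been described in inflamed and ageing tissue.

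The members came from all 8 libraries, with 101 and 78 in untreated wildtype, 47 and 61 in untreated mutant, 89 and 138 in DSS-treated wildtype, and 40 and 319 in DSS-treated mutant mice (replicates 1 and 2 in each pair; this sequence is called library order below). DSS-treated mutant replicate 2 alone gave 36.5% of them. Summed over members, a library held between 92208 UMIs (DSS-treated mutant replicate 1) and 1408763 UMIs (DSS-treated mutant replicate 2). Most members passed the rule narrowly. Just inside the threshold, 582 members (66.7%) carried 1 Gzmk UMI, 291 carried 2 or more, 50 carried 4 or more, and the highest count was 10. Just outside it lay the 11322 T cells of the same gate with no Gzmk UMI, called Gzmk- cells below. Those can include cells whose Gzmk transcripts were not captured. Gzmk+ cells were deeper, with median UMIs per cell of 1993.5 to 3275 over the libraries against 1895 to 2710 in Gzmk- cells, and the Gzmk+ median was the greater in 8 of 8 libraries. Gzmk had a UMI in 1 of 6835 fibroblast barcodes and 4 of 3247 B cell barcodes. These barcodes were unlisted and chosen to have no UMI of Cd4 or of the T cell genes of the rule. That choice removes barcodes with stray T cell transcripts, so values in them, here and below, can understate stray counts. No barcode was a member in more than 1 library, and 14 of the 873 member barcodes were also present in another library's table.

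Eomes and Ccl5 were not in the rule. Both were named as markers with earlier results of the same data known, so their values here are a description. Of the 873 members, 86 had an Eomes UMI and 467 a Ccl5 UMI, against 61 and 2632 of the 11322 Gzmk- cells. Neither gene alone defines an effector CD4 T cell. In the members Cd8a and Cd8b1 summed to between 0 and 10.8 CPM, that is, UMI counts scaled to a common library total. A list of 7 NK and innate lymphoid cell markers summed to 48.1 to 150 CPM in untreated and 21.7 to 132 CPM in DSS-treated libraries, against 96.8 to 122 and 81.9 to 136 CPM in Gzmk- cells. Of that list the NK cell receptor genes Ncr1 and Klra8 were at 0 in the members of every library, and the adaptor gene Tyrobp had a UMI in 48 of the 873. A list of 5 γδ T cell markers summed to 6.01 to 32.8 CPM in untreated and 0 to 13.0 CPM in DSS-treated libraries, against 10.9 to 19.0 and 6.34 to 13.1 CPM in Gzmk- cells. A UMI of Cd8a, Cd8b1, Ncr1, Trdc or Tcrg-C1 was counted in 23 members. Transcripts of other cell types were counted in some members, and their part in the results was not tested except where a value is given. Dendritic cell markers summed to 338 to 4662 CPM, B and plasma cell markers to 459 to 4124 CPM and macrophage markers to 93.2 to 526 CPM. The epithelial markers reached 635 CPM in DSS-treated mutant replicate 2, against at most 44.7 CPM in the untreated libraries. Heat-shock transcripts set both untreated mutant libraries apart, in Gzmk+ and in Gzmk- cells, and their values stand beside the results they touch.

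Gzmk lies on mouse chromosome 13, on the minus strand at positions 113171608 to 113225908 (GRCm38, GENCODE M21), near Gzma, the other tryptase granzyme, at 113093825 to 113100981 on the same strand. Eomes is on chromosome 9 at 118478212 to 118486132 (plus strand) and Ccl5 on chromosome 11 at 83525778 to 83530518 (minus strand). The 250 bases before the RefSeq start sites (GRCm38.p6) of the neighbouring granzyme genes are shown because Eomes is a T-box factor and both granzymes are described below. Capitals mark the T-box core motif GGTGTGA, searched on both strands.
Gzmk, chr13:113180966-113181215, minus strand: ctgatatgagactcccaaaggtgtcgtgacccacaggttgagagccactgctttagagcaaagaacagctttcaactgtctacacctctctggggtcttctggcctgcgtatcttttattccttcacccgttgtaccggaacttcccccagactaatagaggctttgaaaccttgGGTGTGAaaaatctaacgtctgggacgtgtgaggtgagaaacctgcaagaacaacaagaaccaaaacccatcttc
Gzma, chr13:113100982-113101231, minus strand: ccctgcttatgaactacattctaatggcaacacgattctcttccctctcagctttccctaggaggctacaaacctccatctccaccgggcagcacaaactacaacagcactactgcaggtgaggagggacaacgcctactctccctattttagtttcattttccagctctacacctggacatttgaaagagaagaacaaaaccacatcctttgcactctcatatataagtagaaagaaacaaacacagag
The Gzmk window held 1 match, on the coding strand with its first base at position -75 from the start site. The Gzma window and the corresponding 250 bases of Eomes held none. Of 32851 promoter windows of that length, 1095 (3.33%) held the motif, so a match is a description of the letters and not of a binding site.

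The share of T cells that were Gzmk+ differed widely between libraries of the same group and did not pass a test between treatments or genotypes. To compare libraries of different depth, each T cell was thinned at random to 1000 UMIs and shallower cells were left out. In library order the shares after thinning were 1.91%, 1.68%, 1.01%, 1.40%, 1.55%, 3.59%, 1.10% and 3.97%, and without thinning 4.88%, 3.70%, 2.61%, 2.84%, 2.95%, 5.38%, 1.53% and 9.10%. After thinning, 1 library of each DSS-treated pair was above the untreated range and the other lay within it. The libraries above it were replicate 2 of each DSS-treated group. Their titles hold neighbouring numbers, as do those of the lower libraries, and whether this bears on the spread was not tested. Without thinning, DSS-treated mutant replicate 1 lay below all 4 untreated libraries. The DSS-treated libraries had 2.55% ± 1.44 (SD, n = 4) and the untreated libraries 1.50% ± 0.39 (SD, n = 4). The difference of 1.05 percentage points did not pass an exact two-sided permutation test (p = 0.314, Benjamini-Hochberg adjusted 0.543 over 2 share tests; the smallest p possible is 0.0286). Mutant libraries had 1.87% ± 1.41 and wildtype libraries 2.18% ± 0.95 (SD, n = 4 each), which also overlapped (exact permutation p = 0.543). Dropping replicate 2 of the DSS-treated mutant moved that difference from -0.31 to -1.01 percentage points and the DSS difference to 0.577, and dropping replicate 2 of the DSS-treated wildtype moved the genotype difference to 0.159. The level of Gzmk over all T cells, which needs no cutoff, was 24.5, 17.3, 9.82, 14.9, 16.8, 32.4, 13.0 and 41.3 CPM in library order. Its log2 change with DSS was 0.62 (SE 0.35, edgeR adjusted p = 0.223), in a comparison in which 19.2% of 11545 genes passed (9.54% higher, 9.62% lower). That count of 2212 was 1216 or 334 without untreated wildtype replicate 1 or 2, 985 or 696 without untreated mutant replicate 1 or 2, 830 when replicate 2 of the DSS-treated wildtype was dropped and 1328 when replicate 2 of the DSS-treated mutant was. Without DSS-treated mutant replicate 1 the change was 0.90 and passed, and without DSS-treated mutant replicate 2 it was 0.063. The genotype difference in Gzmk was -0.27 on the log2 scale, among 11545 genes of which 0 passed with edgeR (0.0%) and 1 with DESeq2, and 383 had an unadjusted p under 0.05 with edgeR.

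**Figure D1:**
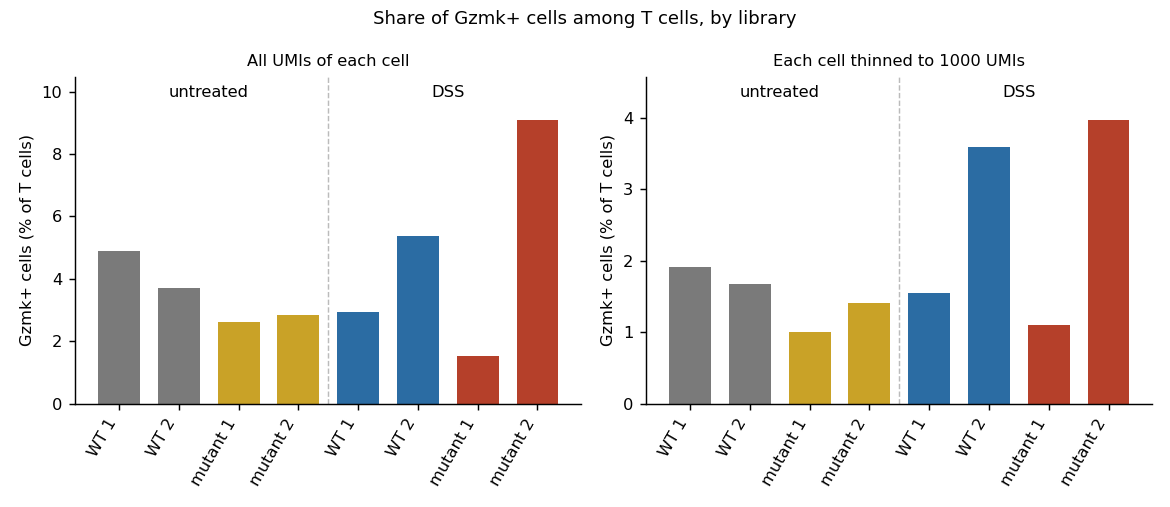
Share of T cells that met the Gzmk+ rule, in percent, in each of the 8 libraries (bars), with all UMIs (left) and after thinning each cell to 1000 UMIs (right); the dashed line separates untreated from DSS-treated libraries. DSS-treated wildtype replicate 2 (3.59% thinned) and DSS-treated mutant replicate 2 (3.97% thinned) stand above the other 6 libraries, which lie between 1.01% and 1.91% after thinning.

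Compared with Gzmk- cells of the same library, Gzmk+ cells carried more of the T-box factor Eomes, of the chemokine Ccl5, of granzyme A and of interferon-γ, and less of the genes of Th17 cells and of naive or central memory cells. UMIs were summed per library and class and tested with edgeR, with the library as a block. Of 8404 genes, 194 (2.31%) passed an adjusted p of 0.05, 85 (1.01%) higher and 109 (1.3%) lower in Gzmk+ cells. The balance of directions turned with the scaling, to 120 higher and 99 lower with RLE size factors and 93 higher and 65 lower with DESeq2. Without DSS-treated mutant replicate 2 the count was 117. The genes of the rule and Cd4 were not tested. For comparisons between classes, here and below, the share of all genes whose values did not overlap was not counted. Nor was the share with the same direction in 8 of 8 libraries. Statements that classes did not overlap, and counts of libraries with a given direction, therefore only describe the values. The median mitochondrial share of a cell's UMIs was lower in Gzmk+ than in Gzmk- cells in 8 of 8 libraries, at 2.65% to 3.33% against 2.87% to 3.74%, and its part in the differences was not tested.

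Eomes had the largest fold change among the genes named for this comparison. Its level in Gzmk+ cells was 6.62, 45.1, 32.8, 79.4, 115, 57.0, 282 and 63.9 CPM in library order, against 0.257 to 6.16 CPM in Gzmk- cells. The classes did not overlap, and the highest value was that of DSS-treated mutant replicate 1, the library with the fewest members. The log2 fold change was 4.38 (SE 0.25, edgeR adjusted p = 2.55e-12). Ccl5 was at 1386, 1106, 2237, 2159, 4054, 2058, 3742 and 1699 CPM in Gzmk+ and at 189 to 1002 CPM in Gzmk- cells. The lowest Gzmk+ library stood above the highest Gzmk- library, and the log2 fold change was 2.13 (SE 0.26, edgeR adjusted p = 1.08e-05). Both genes were named as markers of these cells with earlier results of the same data known, so their tests are no independent support for the name.

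Granule and killing genes were represented by 12 tested genes of 15, of which 5 were higher and 0 lower, with a median log2 fold change of 0.24 against -0.01 over all genes tested. Gzma, a granzyme that like granzyme K cleaves after basic residues, was at 371, 301, 197, 114, 155, 187, 423 and 180 CPM in Gzmk+ cells and at 20.0 to 126 CPM in Gzmk- cells. It was the higher of the pair in 8 of 8 libraries, although the ranges overlapped (log2 fold change 1.52, SE 0.19, edgeR adjusted p = 1.02e-05). The other 4 were Ctsw (cathepsin W of killer cells, 0.83), Nkg7 (a granule membrane protein, 0.77), Fasl (the death ligand, 0.77) and Serpinb6b (a granzyme inhibitor, 0.63). The Fasl call was lost without DSS-treated wildtype replicate 2 (0.69) and without DSS-treated mutant replicate 2 (0.74). Gzmb, which encodes granzyme B, did not pass. It had 158 ± 107 CPM in Gzmk+ and 139 ± 40.2 CPM in Gzmk- cells (SD, n = 8 each), with a log2 difference of 0.09 (SE 0.15, edgeR adjusted p = 0.872). Perforin (Prf1), the pore former through which granzymes enter target cells, gave 18 UMIs in all members and was too rare to test.

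Among chemokines and their receptors, Ccl4, an inflammatory chemokine related to Ccl5, was higher by 1.21 on the log2 scale, in 6 of 8 libraries. Of the homing receptors, Ccr6 (-1.54), Ccr4 (-0.82) and the follicular receptor Cxcr5 (-0.91) were lower. The Ccr4 call was lost without untreated wildtype replicate 1, either DSS-treated wildtype library or DSS-treated mutant replicate 2 (-0.72 to -0.82), and the Cxcr5 call without any untreated library or DSS-treated mutant replicate 2 (-0.73 to -0.89). Cxcr3 and Cxcr6, receptors of Th1 and tissue-resident cells, had log2 differences of 0.31 and -0.05 and did not pass.

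The interferon-γ side was marked by Ifng (333 ± 115 against 165 ± 59.3 CPM, log2 fold change 0.95, SE 0.11, edgeR adjusted p = 2.4e-06) and by the receptors of the cytokines that induce it. Il12rb2, the inducible chain of the interleukin-12 receptor, was higher by 0.86 with no overlap between classes, and the interleukin-18 receptor chains Il18rap and Il18r1 by 0.57 and 0.34. The Il18r1 call was lost without untreated mutant replicate 1 (0.32), DSS-treated wildtype replicate 2 (0.26) or DSS-treated mutant replicate 2 (0.37). Tbx21, which encodes T-bet, did not pass (log2 difference 0.58, edgeR adjusted p = 0.0536). Its direction was the same in 8 of 8 libraries. Of 17 transcription factors on the list, Eomes, Runx3 (0.36, a factor of cytotoxic lineages) and Maf (0.31) were higher and Nfil3 (-0.51) lower. The MHC class I genes H2-K1, H2-D1 and H2-Q7 were higher by 0.18, 0.17 and 0.31, the only calls among 10 class I genes. The H2-K1 call was lost without either replicate 1 of the DSS-treated groups (0.16 each), and the H2-D1 call without any library other than the untreated wildtype pair (0.15 to 0.19). None of 10 tested inhibitory receptors passed, among them Pdcd1 (-0.46), Lag3 (-0.38), Havcr2 (-0.37) and Tigit (0.34).

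Th17 genes were lower in 7 and higher in 0 of 9 tested (median log2 fold change -1.05, against -0.01 for all genes). Cells with an Il17a UMI had been removed from both classes, but cells whose Il17a transcripts were not captured can remain. Gzmk- cells were also the shallower class, and the part of such cells in these differences was not tested. The 7 were Il1r1 (the interleukin-1 receptor, -1.42), Ccr6, Il22 (-1.30), Tmem176a (-0.92), Tmem176b (-0.72), Rora (-0.40) and Ltb4r1. Il1r1 was at 13.0 ± 3.40 CPM in Gzmk+ and 45.1 ± 17.0 CPM in Gzmk- cells (SD, n = 8 each) and did not overlap. The Il22 call rested on few cells and was lost without any library other than the untreated wildtype pair (-1.04 to -1.29). The Ccr6 call was lost without either DSS-treated wildtype library or DSS-treated mutant replicate 2 (-1.24 to -1.42), and the Ltb4r1 call (-1.08) without either DSS-treated wildtype library or untreated wildtype replicate 1 (-0.91 to -1.07). Naive and memory-stem genes were lower in 6 and higher in 0 of 12 tested, with a median of -0.37. They included the transcription factors Tcf7 (-0.51), Lef1 (-0.60) and Satb1 (-0.29) and the lymph node homing receptor Ccr7 (-0.44). The Lef1 call was lost without untreated wildtype replicate 1, DSS-treated wildtype replicate 2 or DSS-treated mutant replicate 2 (-0.33 to -0.57), and the Ccr7 call without any library but untreated mutant replicate 1 and DSS-treated wildtype replicate 1 (-0.35 to -0.44). S100a4, a calcium-binding protein of motile memory cells, was at 213 ± 57.0 CPM in Gzmk+ and 441 ± 110 CPM in Gzmk- cells and lower in 8 of 8 libraries (log2 fold change -1.0, SE 0.08, edgeR adjusted p = 4.98e-09). Areg, an epithelial repair factor, fell by 0.78 and the costimulatory receptor Tnfrsf9 by 0.81 on the log2 scale. The 4 tested B and plasma cell genes, led by Igkc (-1.27) and Jchain (-0.95), were all lower. Among cells of 1500 to 5000 UMIs only, Igkc differed by -0.35 and Jchain by -0.20 and neither passed. Their summed level was 459 to 4124 CPM in Gzmk+ and 790 to 8347 CPM in Gzmk- cells, and its part in other results was not tested.

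Esm1 was also called (log2 fold change 1.58, 108 ± 59.0 against 31.0 ± 6.80 CPM), but its gene, on the plus strand at chr13:113209659-113218098, lies inside the longest annotated Gzmk transcript on the other strand. Whether the counting used strand was not given in the sources used here, so its value is uncertain. The call of Anxa1 (1.33) rested on 1 cell with 405 of the 424 UMIs. Without DSS-treated mutant replicate 2 its log2 difference was -0.88.

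**Figure D2:**
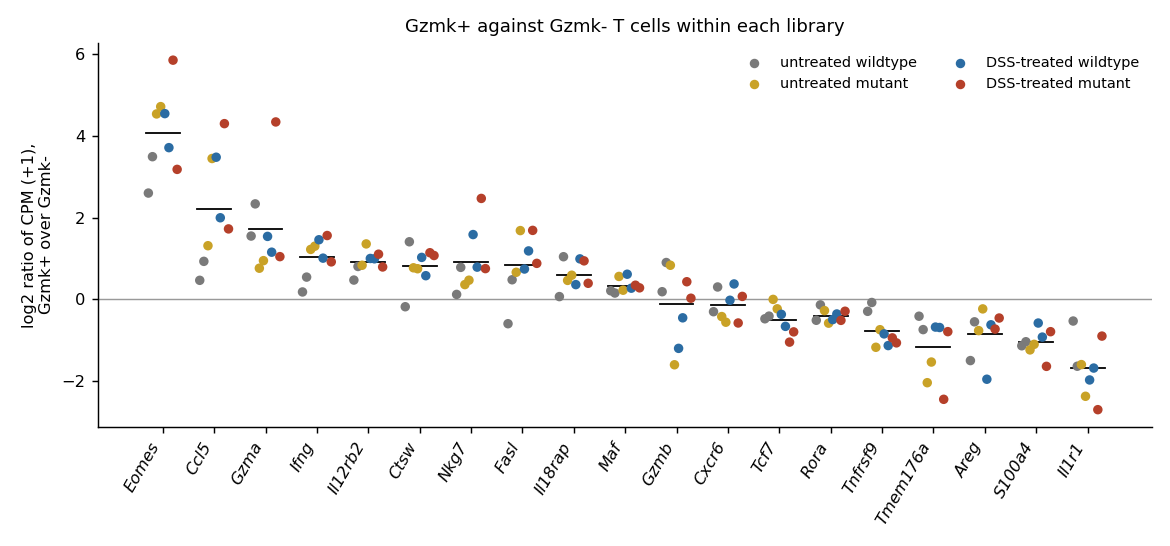
Log2 ratio of CPM (plus a pseudocount of 1) in Gzmk+ over Gzmk- T cells of the same library, for 19 genes; each point is a library, coloured by group, and the black line is the mean of 8. Eomes, Ccl5, Gzma, Ifng, Il12rb2, Nkg7, Il18rap and Maf lie above 0 in 8 of 8 libraries, S100a4, Il1r1, Areg, Tmem176a, Tnfrsf9 and Rora in 0 of 8, and Gzmb in 5.

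Eomes was detected in a larger share of the members after DSS than without it, as a description. After thinning to 1000 UMIs, Eomes was detected in 0.990% to 4.92% of Gzmk+ cells in the untreated libraries and in 5.19% to 20.5% after DSS. The ranges lay close to each other, and these shares rested on 6 untreated and 42 DSS-treated cells. How many other genes had shares apart in this way was not counted. By level the treatments overlapped, with up to 79.4 CPM in untreated and from 57.0 CPM in DSS-treated libraries, and Eomes did not pass (log2 fold change 1.34, SE 0.47, edgeR adjusted p = 0.129). In Gzmk- cells the thinned share was at most 0.0758% in untreated and 0.264% to 0.430% in DSS-treated libraries. In fibroblast and in B cell barcodes of the DSS-treated libraries, which should lack Eomes, 0 or 1 cell per library had it after thinning, at most 1 of 184 fibroblast (0.543%) and 1 of 296 B cell barcodes (0.338%). With all UMIs, 11 of 287 untreated members and 75 of 586 DSS-treated members carried Eomes. The cells with Eomes in the DSS-treated libraries were described further. That split was chosen after its values were seen, and no test was made on it. Ccl5 was detected in 72 of 75 (96.0%) of the Gzmk+ cells with Eomes and in 239 of 511 (46.8%) of those without. Of the 6835 fibroblast barcodes, which should lack Ccl5 and were deeper (median UMIs 3817 to 6900), 337 had a Ccl5 UMI. By library the shares in members were 91.7% to 100% and 42.9% to 48.7%. The costimulatory receptor Cd27 was seen in 53 of 75 against 178 of 511, and Nkg7 in 45 of 75 against 175 of 511. Cxcr6 was detected in 6 of 75 Gzmk+ cells with Eomes and in 177 of 511 (34.6%) of those without, and Il18r1 in 14.7% against 53.6%. By library the ranges were 46.7% to 100% against 28.6% to 36.8% for Cd27 and 50% to 69.2% against 25% to 37.0% for Nkg7. They were 6.67% to 8.57% against 30.9% to 37.3% for Cxcr6 and 0% to 23.1% against 36.8% to 59.9% for Il18r1. The most cells from 1 library were 35 of the 75 and 284 of the 511. Maf was detected in 69.3% against 91.2% and Ifng in 26.7% against 39.9%. By library both overlapped, at 60% to 84.6% against 82.1% to 93.3% for Maf and 15.4% to 31.4% against 25% to 47.4% for Ifng. The shares were 18.7% against 16.8% for Gzmb and 49.3% against 49.5% for Cd69. For Gzma they were 12.0% against 11.5%, beside 3.67% to 9.06% of B cell barcodes (median UMIs 3141 to 11180) and 0% to 1.04% of fibroblast barcodes by library. In fibroblast barcodes Nkg7, Gzmb and Ifng reached at most 1.29% in any library, Cd27, Cxcr6 and Il18r1 at most 2.73% and Cd69 7.27%. Maf was detected in 23.9% to 53.1% of fibroblast barcodes and in 3.01% to 10.6% of B cell barcodes. In untreated libraries, with 11 Gzmk+ cells with Eomes and 276 without, the shares were 90.9% against 52.9% for Ccl5, 18.2% against 33.7% for Cxcr6, 18.2% against 48.6% for Il18r1 and 72.7% against 89.9% for Maf. There Ifng was at 45.5% against 46.7%, Gzma at 36.4% against 23.2% and Cd69 at 81.8% against 66.3%. With so few cells, no difference between treatments is read from these shares. No cell of the 75 had a UMI of the integrin gene Itgae, Cd8a, Ncr1 or Trdc, and 2 had Cd8b1. The 75 and the 511 cells had median UMIs by library of 1996 to 2827 and 1722.5 to 3158. Of 48 Gzmk- cells with Eomes in the same libraries, 39 (81.3%) had Ccl5. Cd27 was seen in 66.7% of these, Nkg7 in 43.8%, Cxcr6 in 16.7%, Il18r1 in 22.9%, Maf in 62.5% and Ifng in 18.8%. A high share of Cd27 and low shares of Cxcr6 and Il18r1 were thus not particular to the members.

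**Figure D3:**
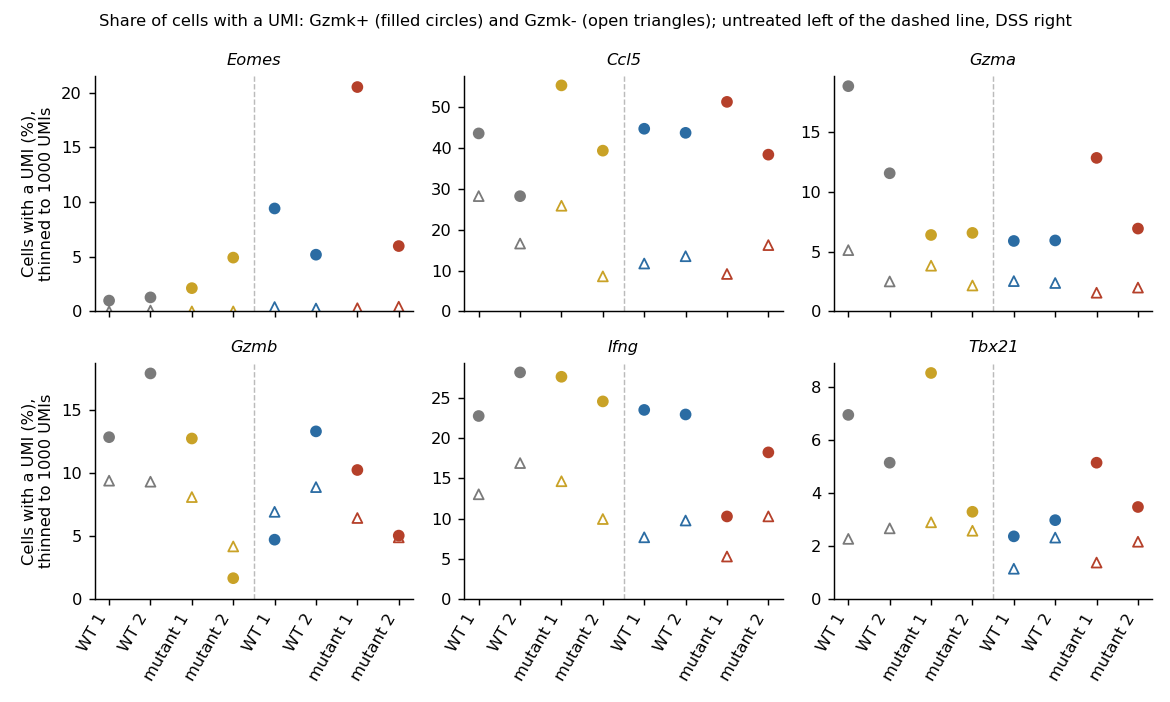
Share of cells with at least 1 UMI after thinning to 1000 UMIs, in percent, for 6 genes in Gzmk+ cells (filled circles) and Gzmk- cells (open triangles) of each library; untreated libraries are left of the dashed line. The share with Eomes in Gzmk+ cells runs from 0.990% to 4.92% in untreated and from 5.19% to 20.5% in DSS-treated libraries, and Ccl5 runs from 28.2% to 55.3% in Gzmk+ cells of all 8 libraries.

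Gzmk+ cells were next compared with T cells of the same gate that had no Gzmk UMI and had UMIs of both Nkg7 and Ccl5 (1210 cells). Gzmk+ cells differed from them by less S100a4 and other genes of the LIM, annexin and lamin list, less Cxcr6 and Rora, and more Maf and Il10. Of 4376 genes, 94 (2.15%) passed the edgeR test, 34 higher and 60 lower in Gzmk+ cells. The count was 35 without DSS-treated mutant replicate 2 and 58 without untreated mutant replicate 2. The Gzmk+ sums are the same as in the comparison with Gzmk- cells. Gzma (-0.19), Gzmb (-0.48), Ifng (0.16) and Tbx21 (-0.31 on the log2 scale) did not pass, and Eomes was below the filter.

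Maf, a factor that drives Il10 in effector T cells, was at 1237 ± 213 CPM in Gzmk+ and 851 ± 191 CPM in Nkg7 Ccl5 cells (SD, n = 8 each) and higher in 8 of 8 libraries (log2 fold change 0.55, SE 0.07, edgeR adjusted p = 2.1e-05). Il10 was higher by 1.16, in 7 of 8 libraries, with 102 members carrying a UMI. That difference is one from the Nkg7 Ccl5 class, and Il10 shares in Gzmk- cells were near those of the members. Among cells without an Eomes UMI, Il10 was detected in 9.78% of Gzmk+ and 8.86% of Gzmk- cells in untreated libraries. After DSS the shares were 13.1% and 11.7%. Myb, a factor of stem-like T cells, was higher by 1.09, and Sh2d1a and Slamf6, an adaptor and a receptor of T-B cell contact, by 0.74 each. The Slamf6 call was lost without DSS-treated mutant replicate 2 (0.71). S100a4 was at 134 to 288 CPM in Gzmk+ and 365 to 731 CPM in Nkg7 Ccl5 cells, without overlap (log2 fold change -1.36, SE 0.09, edgeR adjusted p = 1.05e-10). It was 1 of 6 lower genes among 12 tested of the list of LIM, annexin and lamin genes (0 higher, median -0.37 against 0.01 for all genes), with Crip1 (-0.50), Lgals1 (-0.59), Vim (-0.51), S100a6 (-0.59) and S100a10 (-0.26). The S100a10 call was lost without any library other than the untreated wildtype pair (-0.21 to -0.28). The residency receptor Cxcr6 was at 157 ± 51.2 against 273 ± 71.1 CPM and lower in 8 of 8 libraries (-0.75, SE 0.11, edgeR adjusted p = 0.000165). Penk, which encodes enkephalin (-1.72), the activating receptor Cd226 (-1.37), Pdcd1 (-1.01) and Rora (-0.50) were lower too. The Pdcd1 call was lost without DSS-treated mutant replicate 2 (-0.61).

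The second comparison within effector cells was with T cells of the same gate that carried Ifng and no Gzmk (2206 cells). Gzmk+ cells had more Ccl5 and Gzma than these and fewer transcripts of early activation genes. The Ifng class was picked for an Ifng UMI, so genes that go with Ifng are raised in it by that choice. The same holds for Nkg7 and Ccl5 in the class above, and these differences are a description of chosen classes. Of 5306 genes, 110 (2.07%) passed the edgeR test, 29 higher and 81 lower, again on the same Gzmk+ sums. Ccl5 was higher by 1.36 (SE 0.25, 2305 ± 1059 against 879 ± 436 CPM, 7 of 8 libraries, edgeR adjusted p = 0.0033) and Gzma by 1.13 (SE 0.19, 241 ± 111 against 101 ± 55.3 CPM, 8 of 8 libraries, edgeR adjusted p = 0.00121). Nkg7 (-0.22) and Gzmb (0.28) did not pass. Of 15 tested early response genes, 6 were lower and 0 higher (median -0.23 against 0.00 for all genes), namely Jun (-0.70), Nr4a1 (-0.64), Fosb (-0.50), Egr1 (-0.49), Nfkbia (-0.30) and Jund (-0.23). The effector factors Zeb2 (-0.78), Prdm1 (-0.61), Bhlhe40 (-0.41) and Id2 (-0.38) were lower. S100a4 was at 134 to 288 CPM in Gzmk+ and 384 to 725 CPM in Ifng cells, again with no overlap (-1.20, SE 0.09, edgeR adjusted p = 1.08e-08). Tmem176a (-1.26), Tmem176b (-1.06), Rgcc (-1.07) and Cxcr6 (-0.75) were lower as well. The Egr1 call was lost without any library but DSS-treated wildtype replicate 2 (-0.44 to -0.51), and the Prdm1 call without any but untreated mutant replicate 1 and DSS-treated mutant replicate 2 (-0.55 to -0.60). The Jund call was lost without any but untreated mutant replicate 1 and DSS-treated wildtype replicate 1 (-0.17 to -0.23), and the Nfkbia call without replicate 2 of either DSS-treated group (-0.25 and -0.28). The count of 110 was 64 without DSS-treated wildtype replicate 1 and 72 without replicate 2.

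After DSS, Gzmk+ cells had more of the bone marrow and tissue homing receptor Cxcr4 and less of the aryl hydrocarbon receptor Ahr, of Crip1 and of the nuclear lamin Lmna. Of 4652 genes, 116 (2.49%) passed the edgeR test averaged over genotypes, 45 higher (0.967%) and 71 lower (1.53%). Without cells carrying 10 or more UMIs of a non-T cell marker the count was 176, and without untreated wildtype replicate 2, untreated mutant replicate 2, DSS-treated wildtype replicate 2 or DSS-treated mutant replicate 2 it was 74, 55, 58 or 68, respectively.

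Cxcr4 was at 55.2, 57.1, 56.2 and 49.6 CPM in the untreated and 155, 267, 249 and 220 CPM in the DSS-treated libraries. The treatments did not overlap, which held for 10.4% of the 4652 genes, and the untreated values lay close together (log2 fold change 1.98, SE 0.22, edgeR adjusted p = 4.61e-05). The call held under all 16 alternatives, with cells of 1500 to 5000 UMIs giving 1.51. The homeostatic receptor Il7r rose by 0.73 (225 ± 55.1 to 381 ± 88.8 CPM, SD, n = 4 each) and Cd27 by 0.81 (123 ± 13.7 to 238 ± 66.6 CPM), each without overlap. Both calls were near the threshold. The Il7r call was lost without any library but untreated mutant replicate 2 and DSS-treated mutant replicate 1 (0.50 to 0.75), and the Cd27 call without any but replicate 2 of either DSS-treated group (0.67 to 0.85). Fam169b rose by 2.29, Lars2, a mitochondrial tRNA ligase, by 1.27 and the NF-κB inhibitor Tnfaip3 by 0.57, a call lost without replicate 2 of any group or untreated mutant replicate 1 (0.47 to 0.61).

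Ahr, a ligand-activated factor that maintains intestinal lymphocytes, was at 232, 189, 178 and 233 CPM in the untreated and 115, 82.9, 65.1 and 80.2 CPM in the DSS-treated libraries. All DSS-treated values lay below all untreated ones (log2 fold change -1.29, SE 0.20, edgeR adjusted p = 0.00133), and the call held under all 16 alternatives. Crip1, a LIM protein of tissue T cells, was at 1797, 1807, 1291 and 1469 CPM in the untreated and 780, 791, 727 and 917 CPM in the DSS-treated libraries, with no overlap (-0.99, SE 0.13, edgeR adjusted p = 0.000143). Of 12 tested LIM, annexin and lamin genes, 6 fell and 0 rose, with a median of -0.69 against -0.01 for all genes. Beside Crip1 these were Lmna (-1.10), Vim (-0.84), Lgals1 (-0.82), Lgals3 (-0.88) and S100a10 (-0.65). The Vim call was lost without DSS-treated wildtype replicate 1 (-0.70). The Lgals3 call was lost without that library, untreated wildtype replicate 1, untreated mutant replicate 2 or DSS-treated mutant replicate 2 (-0.66 to -1.04). S100a4 was at 212 ± 60.8 CPM after DSS and 214 ± 62.3 CPM without (SD, n = 4 each), a log2 difference of 0.03 that did not pass. The ubiquitin gene Ubb fell by 1.10 and brain-type creatine kinase, Ckb, by 1.64.

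The genes that mark these cells did not pass for DSS. Eomes was at 41.0 ± 30.2 CPM in untreated and 129 ± 105 CPM in DSS-treated libraries (SD, n = 4 each), a log2 difference of 1.34 (SE 0.47, edgeR adjusted p = 0.129). Ccl5 was at 1722 ± 562 and 2888 ± 1182 CPM (0.74, SE 0.20, edgeR adjusted p = 0.0541). Gzma (-0.18), Gzmb (-0.93), Ifng (-0.31) and Tbx21 (-0.89) did not pass either, and 0 of 11 tested granule genes did.

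Some of the genes called for DSS are known from other cell types. Marker sums of such cell types are given as values and were not tested. Those of macrophages and of dendritic cells overlapped between treatments. Thbs1 (6.18 on the log2 scale), Cxcl2 (2.03) and Vcam1 (2.63), genes of macrophages and stromal cells, were called. Thbs1 gave 193 UMIs in 49 members, 53 of them in 1 cell, and was at 0 in 3 of the 4 untreated libraries, so that its fitted change depends on the prior count. The Cxcl2 call was lost without untreated mutant replicate 2 (1.87), and the Vcam1 call without replicate 2 of either untreated group or of the DSS-treated wildtype, or without untreated mutant replicate 1 (2.02 to 2.67). Macrophage and monocyte markers in Gzmk+ cells summed to 93.2 to 274 CPM in untreated and 155 to 526 CPM in DSS-treated libraries, with Csf1r at 0 in all untreated ones. Neutrophil markers summed to 0 to 2.21 and 3.60 to 78.1 CPM. Without cells carrying 10 or more UMIs of a non-T marker, the changes were 5.26 for Thbs1, 1.81 for Cxcl2 and 2.53 for Vcam1, and all were still called. The dendritic cell genes Cst3 (-2.47) and H2-Ab1 (-2.15) fell, and 311 of 497 Cst3 UMIs in untreated wildtype replicate 1 came from 1 member. Without those cells Cst3 changed by 0.12 and was not called, and H2-Ab1 by -0.54. The H2-Ab1 call was also lost without replicate 1 of either wildtype group or replicate 2 of either mutant group (-0.79 to -1.85). Dendritic cell markers summed to 343 to 4662 CPM in untreated and 338 to 1490 CPM in DSS-treated libraries.

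**Figure D4:**
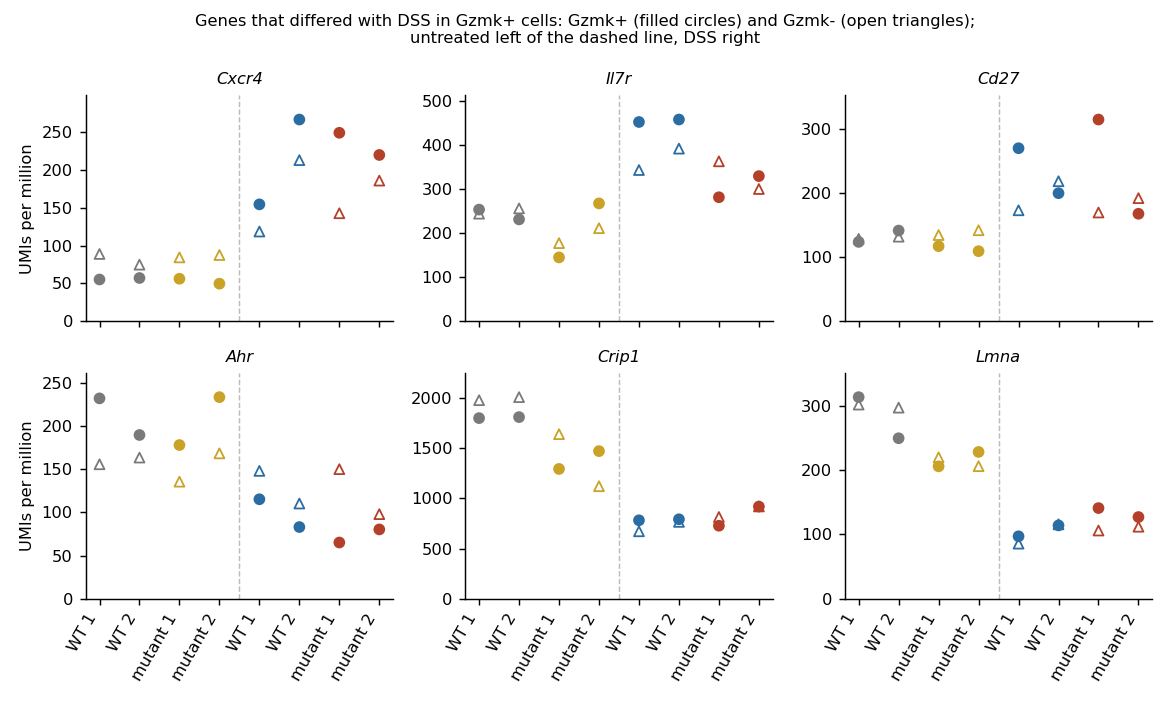
Level in CPM of 6 genes called for DSS in Gzmk+ cells, by library, in Gzmk+ cells (filled circles) and Gzmk- cells (open triangles); untreated libraries are left of the dashed line. In Gzmk+ cells Cxcr4 runs from 49.6 to 57.1 in untreated and from 155 to 267 in DSS-treated libraries, and Ahr from 178 to 233 and from 65.1 to 115.

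The same treatment contrast was fitted in Gzmk- cells, where 1533 of 10493 genes passed (14.6%, with 7.36% higher and 7.25% lower), from sums over many more cells. There Cxcr4 rose by 0.92, Il7r by 0.60 and Cd27 by 0.43, Crip1 fell by 1.13 and Lmna by 1.33, and Ahr differed by -0.37 and did not pass. Whether DSS acted differently in the classes was tested directly as a class by treatment term. Of 9888 genes, 0 passed (0.0%) with edgeR and 0 with DESeq2, and 467 had an unadjusted p under 0.05 with edgeR. The earlier edgeR fit called 21 genes, and the main fit without a filter on low counts 24, so the count of 0 depended on the fit. The main fit was chosen after the earlier one was seen to give an infinite prior in this model. The term was 1.0 for Cxcr4 (SE 0.21, edgeR adjusted p = 0.427), -0.81 for Ahr (SE 0.19, adjusted p = 0.521) and 1.28 for Ccl5 (SE 0.41, adjusted p = 0.909). Ccl5 was at 1722 ± 562 and 2888 ± 1182 CPM in Gzmk+ cells and 669 ± 362 and 395 ± 155 CPM in Gzmk- cells of untreated and DSS-treated libraries. Neither class passed for Ccl5 (0.74 and -0.79).

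Within each genotype the DSS contrast rested on 2 libraries against 2, with the spread shared over all groups. In wildtype 40 of 4652 genes passed (0.86%), 15 higher (0.322%) and 25 lower (0.537%), and 45.7% of genes did not overlap between the pairs. Ccl5 was among the higher, at 1386 and 1106 CPM in untreated and 4054 and 2058 CPM in DSS-treated wildtype (log2 fold change 1.29, SE 0.28, edgeR adjusted p = 0.0362). Dropping untreated wildtype replicate 2 (1.14) or DSS-treated wildtype replicate 1 (0.72) ended that call. Cxcr4 rose by 1.93, lost without DSS-treated wildtype replicate 2 (1.46), and Crip1 fell by 1.20. The S-phase and mitosis genes Pclaf (-1.94), Stmn1 (-1.19) and Top2a (-1.01) fell. The count of 40 fell to 13 when DSS-treated wildtype replicate 2 was dropped, and to 22 for replicate 1 of that group or untreated wildtype replicate 2. The Stmn1 call was lost without any of those 3 libraries (-0.88 to -1.21) and the Top2a call without any library but DSS-treated mutant replicate 1 (-0.83 to -1.19). Pclaf lost its call when untreated wildtype replicate 2 (-1.73) or DSS-treated wildtype replicate 1 (-1.64) was dropped. In the mutant 37 genes passed (0.795%), 10 higher (0.215%) and 27 lower (0.58%), and 40.2% did not overlap. Cxcr4 rose by 2.04 and Ahr fell by 1.46, and both calls were lost without untreated mutant replicate 2 (1.98 and -1.22) or DSS-treated mutant replicate 2 (2.12 and -1.76). Heat-shock genes made up 8 of the 27 lower genes, and 0 of 11 heat-shock genes passed in wildtype. Lars2 rose by 1.38 in wildtype and by 1.16 in the mutant. The wildtype call was lost without replicate 2 of either wildtype group (1.04 and 1.17), and the mutant call without either untreated mutant library or DSS-treated mutant replicate 2 (0.92 to 1.14). The mutant count was 7 without DSS-treated mutant replicate 2 and 15 without untreated mutant replicate 2, and from 62 to 86 without any wildtype library or DSS-treated mutant replicate 1.

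The knock-in was compared with wildtype in the same cells. A 3' count does not show an amino acid change, so the genotype was taken from the labels alone. Averaged over treatments, 7 of 4652 genes passed the edgeR test (0.15%), 6 higher (0.129%) and 1 lower (0.0215%) in mutant cells. The 6 were the heat-shock genes Hspa1a (2.31), Hspa1b (2.53), Hspb1 (2.37), Hsph1 (1.20), Dnajb1 (0.88) and Hspa8 (0.57). Dnajb1, a co-chaperone, was the only one whose genotypes did not overlap, at 376 ± 63.3 against 219 ± 77.3 CPM (SD, n = 4 each, edgeR adjusted p = 0.0287), as was the case for 1.89% of all genes tested. Its call was lost without replicate 1 of either wildtype group, untreated mutant replicate 1 or DSS-treated mutant replicate 2 (0.74 to 0.83). The Hspa8 call was lost without any library but untreated wildtype replicate 2 and DSS-treated mutant replicate 1 (0.46 to 0.56). The 1 lower gene was Il22 (-4.12), and in each untreated wildtype library most of its UMIs came from 1 cell, as given below. Without DSS-treated mutant replicate 2, 0 genes passed, and the Hspb1 difference was -0.80. Without untreated wildtype replicate 2, 11 passed. The marker genes did not pass: Eomes had a log2 difference of 0.83, Ccl5 0.34, Gzma -0.25 and Ifng 0.30.

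In untreated mice 16 of 4652 genes passed between genotypes (0.344%), 12 higher (0.258%) and 4 lower (0.086%) in mutant cells, against 8 and 1 with DESeq2. Without untreated wildtype replicate 1 the count was 27. Of the 11 heat-shock genes, 10 were higher, with a median of 1.68 against 0.01 for all genes. Hspa1a, the inducible HSP70, was at 41.9 and 117 CPM in wildtype and 2414 and 511 CPM in mutant libraries. Untreated mutant replicate 1 was by far the highest, and both mutant libraries lay above both wildtype ones (log2 fold change 4.31, SE 0.52, edgeR adjusted p = 8.26e-05). Hsph1 was at 263 and 319 CPM in wildtype and 1642 and 1116 CPM in mutant libraries (2.32, SE 0.24, edgeR adjusted p = 1.59e-05). The groups did not overlap, which held for 37.3% of all genes in this contrast. Gzmk- cells of the same libraries showed the pattern too, with Hspa1a at 70.5, 148, 1543 and 361 CPM and Hsph1 at 231, 476, 1066 and 1083 CPM. Whether these transcripts bear on other differences between genotypes was not tested.

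Beyond heat shock, Fas (1.79), the death receptor, and Il21 (4.86), the follicular helper cytokine, were higher in untreated mutant cells. Fas was at 28.7 and 63.1 CPM in wildtype and 112 and 179 CPM in mutant libraries, and Il21 at 0 and 3.01 against 60.8 and 24.8 CPM. Il21 was near the floor. It gave 17 UMIs in 13 untreated members without an Eomes UMI and 2 UMIs in 1 member with Eomes. With a wildtype library at 0, its fitted change depends on the prior count. The Fas call was lost without untreated wildtype replicate 1 (1.25) or untreated mutant replicate 2 (1.37), and the Il21 call without untreated wildtype replicate 1 (3.76) or untreated mutant replicate 1 (4.13). Il22 (-6.19) was lower, but 121 of its 123 UMIs in untreated wildtype replicate 1 came from 1 cell, and 34 of 45 in replicate 2 from another. Ccl21a, a lymphatic and stromal chemokine, had 0 UMIs in both mutant libraries and 118 UMIs in 4 members of the series. Smc2 (-2.24), a condensin subunit, and the histone gene Hist1h1b (-2.03) were lower as well. The Smc2 call was lost without untreated wildtype replicate 2 (-2.05) or either untreated mutant library (-2.16 and -2.34), and the Hist1h1b call without untreated wildtype replicate 2 (-1.90) or untreated mutant replicate 1 (-1.22). Ccl5 (0.89), Ifng (0.85) and Gzma (-1.04) did not pass. Their values were apart between genotypes, which was true of 37.3% of genes.

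After DSS, 0 of 4652 genes passed between genotypes with edgeR (0.0%) and 0 with DESeq2, and 192 had an unadjusted p under 0.05 with edgeR. The pairs did not overlap in 30.1% of genes. The count was 36 without DSS-treated mutant replicate 1, 23 to 29 without any of the untreated libraries, 6 or 7 when replicate 1 or 2 of the DSS-treated wildtype was dropped, and 0 without DSS-treated mutant replicate 2. The smallest p on the higher side were those of Perp (1.87), Saa3 (2.19) and Sfn (1.43), and on the lower side Il1rn (-2.13), Igfbp5 (-3.33) and Sbno2 (-1.01). Their edgeR adjusted p lay between 0.490 and 0.493. In DSS-treated mutant replicate 2, 67 of 99 Perp UMIs and 134 of 162 Sfn UMIs lay in 1 member. The epithelial markers summed to 3.60 and 10.4 CPM in the DSS-treated wildtype and 10.8 and 635 CPM in the mutant libraries, and their part in these differences was not tested. Hspa1a was at 148 ± 51.3 CPM in wildtype and 159 ± 71.4 CPM in mutant (SD, n = 2 each), and 0 of 11 heat-shock genes passed. Eomes was at 115 and 57.0 CPM in wildtype and 282 and 63.9 CPM in mutant libraries, and Gzma at 155 and 187 against 423 and 180 CPM. In both, DSS-treated mutant replicate 1 was high and the other mutant library lay within or beside the wildtype pair.

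The interaction of genotype and DSS, which tests whether the treatment changed these cells differently in the 2 genotypes, passed for 6 of 4652 genes (0.129%), 3 with a positive (0.0645%) and 3 with a negative term (0.0645%). The negative terms were those of Hsph1, Hspa1a and Hspd1. Ccl5 had a term of -1.11 (edgeR adjusted p = 0.479).

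**Figure D5:**
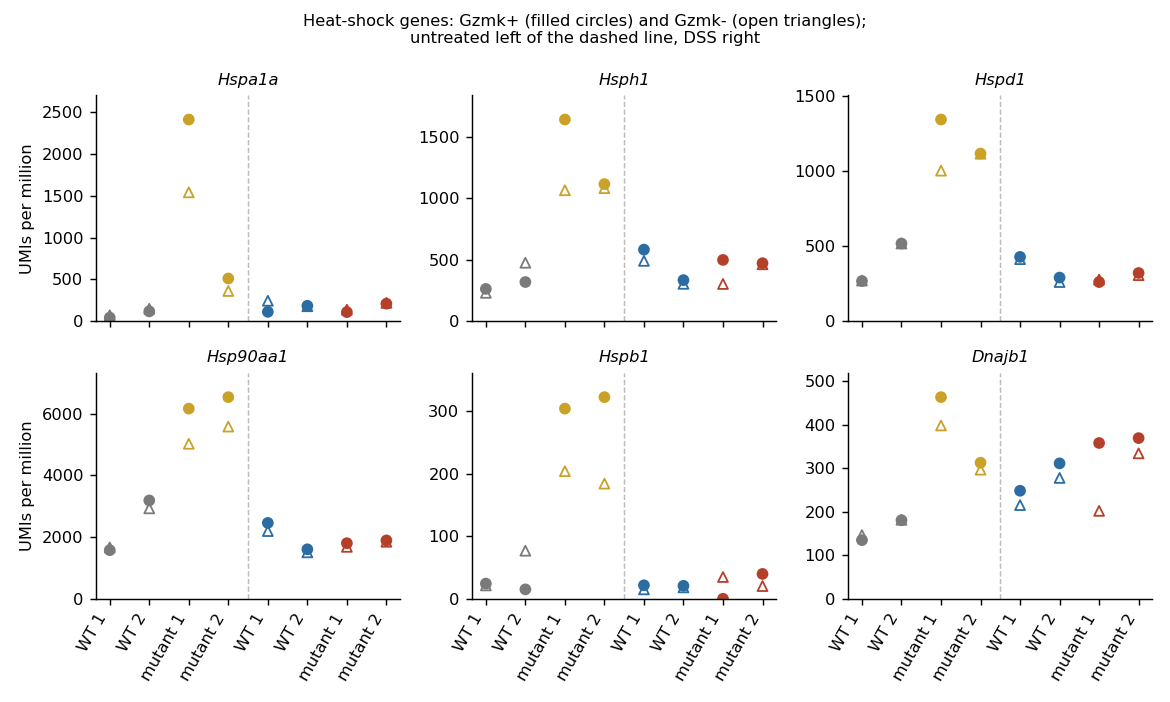
Level in CPM of 6 heat-shock genes by library, in Gzmk+ cells (filled circles) and Gzmk- cells (open triangles); untreated libraries are left of the dashed line. Hspa1a in Gzmk+ cells is at 2414 and 511 in the untreated mutant libraries and at 41.9 to 209 in the other 6, and the Gzmk- cells of the same libraries follow.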

How the data were processed

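The 8 libraries were 10x 3' single-cell RNA libraries. The authors deposited raw UMI counts per gene and barcode, a list of kept cells with their library, and gene symbols in row order. The submitters' processing notes name Cell Ranger 3.1.0, Seurat 4.0.1 and mm10. How cells were chosen for the list is not given in the sources used here. All listed cells had at least 400 genes and 1 Cd4 UMI. Symbols were joined by row. Of 30934 row identifiers found in the reference, 30468 (98.5%) had the listed symbol. Doublets were not called. Caps on Cd79a, Col3a1 and C1qa were applied, but some members still held many UMIs of another cell type's genes.

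Counts were summed per library and class of cells and tested with edgeR 4.0.16 (R 4.3.3; TMM scaling, filterByExpr, quasi-likelihood test with Benjamini-Hochberg adjustment over all genes tested, threshold 0.05). The fit with adjusted deviances became the main one after the earlier edgeR fit was seen to give an infinite prior in the class by treatment model. Class comparisons had library as a block, and condition comparisons all 4 groups. The genes of the rule and Cd4 (12 genes together) were left out of the tests, as were Nkg7 and Ccl5 or Ifng where they defined a class. Gzmk was tested over all T cells only. A fold change's SE is its size over the square root of F. The statistics were tested on simulated data. Shares were compared by exact permutation. DESeq2 1.42.0, RLE scaling, no filter, at least 2 Gzmk UMIs, a depth range, other cell filters and leaving out each library were the alternatives. Python used numpy 2.4.6, scipy 1.17.1, pandas 2.3.3 and matplotlib 3.10.9.

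The members and gene lists were chosen with earlier results of these data known. Named genes were the list genes plus up to 10 each way past the threshold with at least 50 CPM in the higher class and, for conditions, groups that did not overlap. Where none passed, the 3 smallest p each way were named. The replicates are libraries. For conditions the p-values rest on the spread between libraries of a group. For classes they rest on how the difference within a library varied over libraries. Both spreads may be partly technical. Library totals were 34497509 to 46960005 UMIs. Some genes are not reported here.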

Additional observations from a re-analysis of the deposited data

Results flagged for a closer look

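In 6 of 4652 genes (0.129%) the DSS effect in Gzmk+ cells differed between genotypes by the edgeR interaction test. The term is the log2 change with DSS in mutant minus that in wildtype. It was -2.23 for Hsph1 (SE 0.34, edgeR adjusted p = 0.0055), -4.01 for Hspa1a (SE 0.74, edgeR adjusted p = 0.0402) and -1.96 for Hspd1 (SE 0.37, edgeR adjusted p = 0.0444), heat-shock genes whose high values were those of the untreated mutant libraries. It was 2.84 for Pclaf, a replication clamp partner, and 2.86 for the condensin gene Smc2 (edgeR adjusted p = 0.0444 each). Pclaf was at 119, 159, 51.5 and 39.7 CPM in the untreated and 25.2, 44.1, 32.5 and 102 CPM in the DSS-treated libraries, in library order. Smc2 was at 106, 138, 23.4 and 24.8 CPM, then at 43.2, 57.0, 32.5 and 86.6 CPM. For Ccl21a the fitted term was 14.34, which depends on the prior count and is no bound, since its 118 UMIs lay in 4 members of 3 libraries. Without untreated wildtype replicate 1, DSS-treated mutant replicate 1 or untreated mutant replicate 1 the count of such genes was 22, 15 or 2. Without DSS-treated mutant replicate 2 it was 5, of which 1, Hsph1, was among the 6. The terms of the other 5 were then 8.08 for Ccl21a, -4.81 for Hspa1a, -2.23 for Hspd1, 1.34 for Pclaf and 1.56 for Smc2, and none passed. DESeq2 called only Hsph1.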

How the results depend on the processing

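Without the filter on low counts the number of genes called was 484 against Gzmk- cells, 209 against Nkg7 Ccl5 cells, 274 against Ifng cells, 210, 105 and 151 for DSS in both genotypes, wildtype and mutant, 17, 47 and 53 for the mutant over both treatments, untreated and after DSS, 45 for the interaction and 24 for the class by DSS term. With DESeq2 it was 57 and 20 for DSS in both genotypes and wildtype, 4 and 9 for the mutant over both treatments and untreated, and 1 for the interaction. With at least 2 Gzmk UMIs it was 31 against Nkg7 Ccl5 cells, 44 against Ifng cells, 48 and 21 for DSS in both genotypes and wildtype, 3 and 1 for the mutant over both treatments and after DSS, and 14 for the interaction. With cells of 1500 to 5000 UMIs it was 8 and 63 for DSS in wildtype and mutant, 2 for the mutant after DSS and 2 for the interaction. Without cells carrying 10 or more UMIs of a non-T marker it was 176 for DSS and 17 for the interaction, without CD8, NK or γδ markers 2 for the interaction, and with only the 4 libraries compared 68 for DSS in mutant and 3 for the mutant after DSS. The earlier edgeR fit called 21 for the class by DSS term. Leaving out 1 library gave 117 to 191 against Gzmk- cells, 35 to 102 against Nkg7 Ccl5 cells and 64 to 110 against Ifng cells. It gave 55 to 116, 13 to 56 and 7 to 86 for DSS in both genotypes, wildtype and mutant, 0 to 11, 11 to 27 and 0 to 36 for the mutant over both treatments, untreated and after DSS, 2 to 22 for the interaction and 0 to 1 for the class by DSS term. It moved the Gzmk level's DSS change from 0.063 to 0.90, its mutant difference from -0.83 to 0.0058, the share difference for DSS from 0.577 to 1.54 and for the mutant from -1.01 to 0.159 percentage points. The mutant share difference was 0.0013 with thinning to 2000 UMIs and 0.106 with at least 2 Gzmk UMIs. Single genes reversed as follows. Anxa1 against Gzmk- cells was -0.43 with DESeq2, from -0.88 (without DSS-treated mutant replicate 2) to 1.51 when 1 library was left out, and -2.92 with at least 2 Gzmk UMIs. Lyz2 was 0.011 against Gzmk- and 0.015 against Nkg7 Ccl5 cells at 1500 to 5000 UMIs. For DSS, Cst3 was 0.43 and H2-Ab1 0.74 in that depth range and Cst3 0.12 without non-T marker cells, and in mutant Cst3 was 0.095 and 0.27. Hspb1 in mutant ran from -0.80 (without DSS-treated mutant replicate 2) to 2.58 when 1 library was left out and was -0.17 with at least 2 Gzmk UMIs. The causes were not tested. No paired analysis was made. Wildtype and mutant titles hold neighbouring numbers, but none is shared between groups, and the labels do not say that neighbours share a litter or day. Rare genes and the 40 members of DSS-treated mutant replicate 1 limit the depth.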
